A study of Mus musculus with 13 samples.

Results

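The receptors of the common gamma chain family were followed through 6 of 7 genes, Il2ra, Il2rb, Il4ra, Il7r, Il15ra and Il21r, out of 18193 genes with a probe set of their own. A probe set is a group of short DNA probes whose readings are joined into 1 value. The members are all probe sets to which the array annotation gives 1 of these symbols and no other, which made 12 of the 45037 probe sets tested. Il2rg, the shared chain itself, has no such probe set and was not analysed here.

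RNA of CD8+ T cells on a C57Bl/6 background was hybridised to 13 oligonucleotide arrays in 4 groups. The groups were Batf-/- day 3 effector cells (4 arrays), wild-type day 3 effector cells (4 arrays), Batf-/- naive cells (3 arrays) and wild-type naive cells (2 arrays). Cells of every group carried the P14 TCR transgene, so most of them share a single antigen specificity. The Batf-/- cells lack the AP-1 family transcription factor Batf. Day 3 cells of both genotypes had been cultured on plate-bound antibodies to CD3 and CD28 with recombinant human IL-2 at 100 U/ml for 3 days, while naive cells were examined on day 0. All cells were purified by magnetic removal of other cell types, a bulk selection for CD8+ cells in which memory-phenotype cells can remain. Nothing in the labels tells whether arrays of a group stem from separate animals or cultures. The p-values here refer to the spread between arrays, which may be technical, and precision is limited by how few arrays there are.

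Cytokines of this family signal through receptors that share the common gamma chain. Each cytokine is recognised by a private or partly shared chain, and the assembled receptor activates the kinases Jak1 and Jak3, which phosphorylate STAT factors, chiefly Stat5 for IL-2, IL-7 and IL-15, Stat6 for IL-4 and Stat3 for IL-21. Naive T cells survive on IL-7 and so display its receptor at high levels, while activated T cells lower it and display the high-affinity receptor for IL-2.

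The promoters of the chain with the genotype difference (Il7r) and of the chain with the largest rise (Il2ra) are shown as the 250 bases before a RefSeq start site. They are from assembly GRCm38.p6, 5′ to 3′ on the gene's strand, with motif matches in capitals. The start site used for Il7r lies inside the gene's full span, which ends at 9529941, so the last bases of its stretch lie within that span. The third stretch holds the AP-1 match found near a start site of Il15ra.
Il7r, chr15:9529877-9530126, minus strand: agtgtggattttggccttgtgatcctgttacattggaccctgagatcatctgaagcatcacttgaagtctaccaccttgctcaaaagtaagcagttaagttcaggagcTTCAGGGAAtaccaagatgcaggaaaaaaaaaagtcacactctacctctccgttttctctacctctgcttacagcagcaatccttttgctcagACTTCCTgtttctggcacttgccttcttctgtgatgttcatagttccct
Il2ra, chr2:11642542-11642791, plus strand: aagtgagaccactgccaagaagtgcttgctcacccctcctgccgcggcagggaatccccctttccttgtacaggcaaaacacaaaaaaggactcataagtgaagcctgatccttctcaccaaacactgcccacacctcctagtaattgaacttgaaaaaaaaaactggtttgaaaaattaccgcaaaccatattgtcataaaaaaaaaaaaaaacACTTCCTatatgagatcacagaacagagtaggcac
Il15ra, chr2:11705672-11705698, plus strand: gtggggatgcTGAGTCAcagatctgtc

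Windows of 300 bases, 250 before and 50 after a start site, were searched on both strands for 5 motifs. The AP-1 motif that Batf and Jun dimers bind (TGANTCA) occurred in 7.81% of all 32851 RefSeq windows, and among the receptor windows it was found in the downstream one of the 2 Il15ra windows, at bases -30 to -24. The STAT motif (TTCNNNGAA, in 8.3% of windows) was found in Il7r, at bases -142 to -134. The ETS motif (ACTTCCT, in 9.35%) was found in Il7r at bases -49 to -43 and in Il2ra at bases -35 to -29. The RUNX motif (TGTGGTT, in 5.27%) was found in Il7r at bases 4 to 10 after the start, outside the stretch shown, and the FOXO motif (GTAAACA, in 3.65%) in Il21r, on the opposite strand, at bases -38 to -32. These matches are letters in a window and say nothing of binding. The windows of Il4ra and Il2rg, and the other window of Il15ra, held none of the 5. Il2rb is not in the promoter table.

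The genes lie on 4 chromosomes of that assembly. Il2ra (chromosome 2, 11642792 to 11693194) and Il15ra (11705172 to 11733985) follow each other on the same stretch, as do Il4ra (chromosome 7, 125552271 to 125579474) and Il21r (125603252 to 125634397). Il7r (9506159 to 9529941) and Il2rb (78479256 to 78511621) lie far apart on chromosome 15, and Il2rg lies on the X chromosome.

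As a check of the labels, the log2 intensity of Batf lay between 5.56 and 6.77 on the 7 Batf-/- arrays and between 8.63 and 9.36 on the 6 wild-type arrays. Markers of CD8 T cells (6 of 8 measured) averaged 11.67 to 12.23 on every array. Markers of other cell types were also read in naive arrays. The mean of 8 neutrophil markers was 8.01 in Batf-/- naive replicate 1, 4.45 and 5.34 in the other Batf-/- naive arrays, and 5.39 and 4.80 in the wild-type naive arrays. The B cell list (8 of 9 measured) spanned 6.58 to 7.10 in Batf-/- and 6.03 to 6.38 in wild-type naive arrays, and the NK cell list (5 of 6) spanned 7.36 to 8.22 in Batf-/- and 6.51 to 6.70 in wild-type naive arrays. The mean of 5 monocyte and macrophage markers was 7.24 in Batf-/- naive replicate 1, 5.46 and 6.07 in the other Batf-/- naive arrays, and 5.85 and 5.64 in the wild-type naive arrays. At day 3 these 4 lists stood lower, at 3.90 to 4.89 in Batf-/- and 3.93 to 4.88 in wild-type arrays. A probe set mean below 4.35, under which 40% of all probe sets lay, is called dim here.

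Il7r, the chain that binds IL-7, was the member that differed between the genotypes. Stimulated Batf-/- cells had less Il7r RNA than stimulated wild-type cells by both of its probe sets, more than 2-fold, while the naive groups, both bright, had no difference that passed. In the brighter probe set (1448575_at) the log2 intensity was 9.59, 9.40, 9.21 and 9.16 in Batf-/- day 3 arrays and 10.31, 10.45, 10.35 and 10.55 in wild-type day 3 arrays. In the same probe set it was 12.40, 12.60 and 12.56 in Batf-/- naive arrays and 12.54 and 12.82 in wild-type naive arrays. The day 3 groups did not overlap, the naive groups did, and every day 3 array was below every naive array.

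On the linear scale of the deposited values, this probe set averaged 652 ± 91 in Batf-/- and 1368 ± 105 in wild-type day 3 arrays (SD, n = 4 each). Its naive averages were 5886 ± 426 in Batf-/- (n = 3) and 6599 ± 892 in wild-type arrays (n = 2). The dimmer probe set (1448576_at) repeated the order of the day 3 groups, with log2 intensities of 7.77, 7.65, 7.57 and 7.35 in Batf-/- and 8.73, 8.79, 8.77 and 8.94 in wild-type arrays. Its naive values were 10.92, 10.94 and 10.88 in Batf-/- and 10.85 and 10.70 in wild-type arrays, so here the naive groups did not overlap and Batf-/- stood higher.

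**Figure D1:**
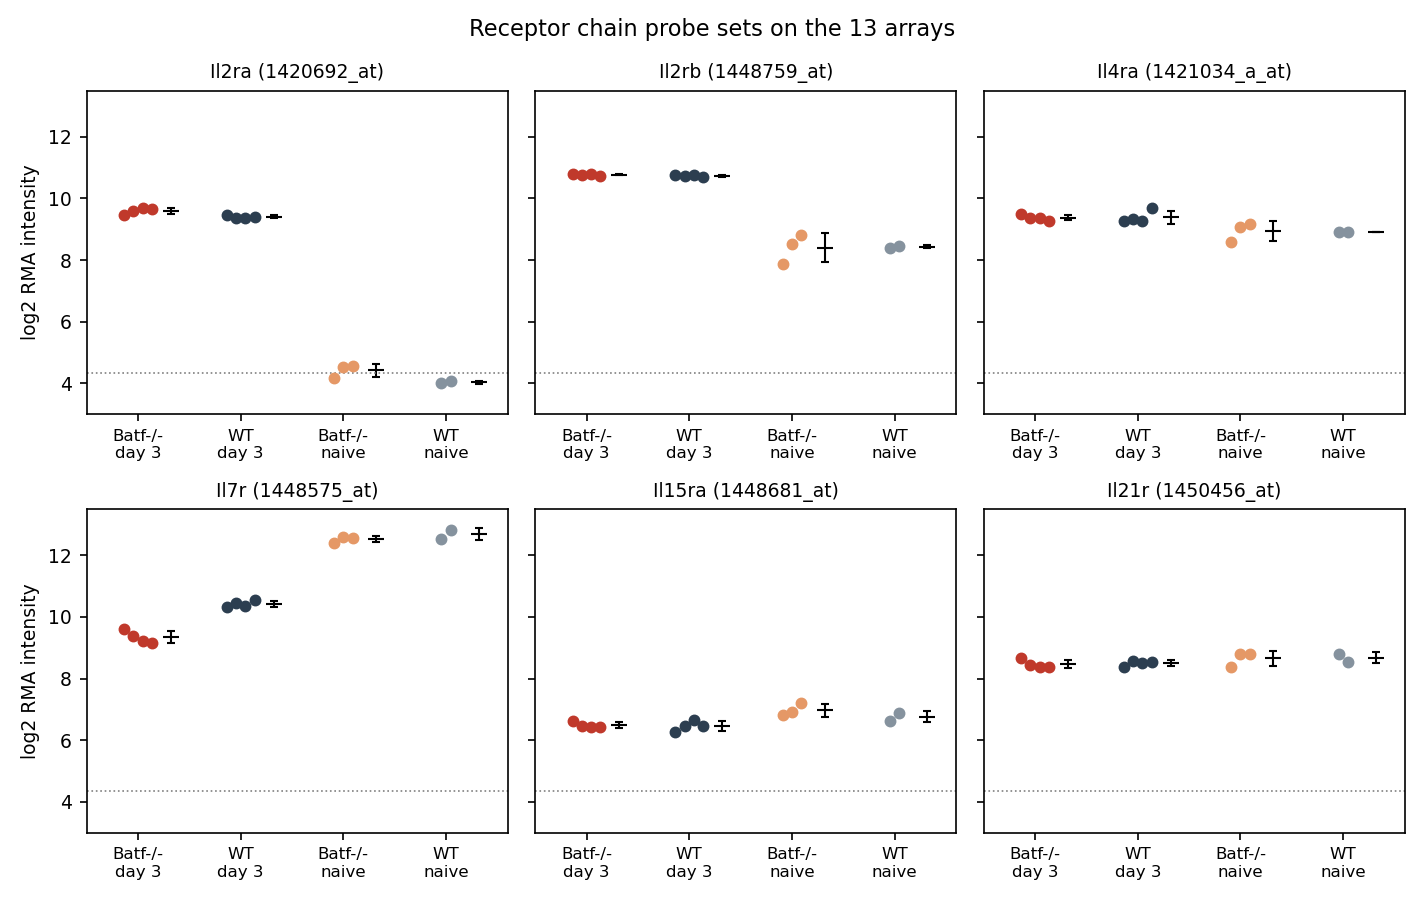
Log2 RMA intensity (y axis) of the brightest probe set of each of the 6 receptor genes in the 4 groups (x axis), with 1 point per array and the mean ± SD as a black bar; the dotted line marks the dim threshold of 4.35. Il2ra and Il2rb are high in both day 3 groups, Il7r is high in both naive groups and lower in Batf-/- than in wild-type day 3 arrays, and Il4ra, Il15ra and Il21r differ little between groups.

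The log2 difference between Batf-/- and wild-type cells at day 3 was -1.08 ± 0.10 for Il7r 1448575_at (SE, n = 4 and 4, limma adjusted p = 0.000199), a 2.11-fold lower level. For 1448576_at it was -1.22 ± 0.09 (adjusted p = 3.01e-05), a 2.34-fold lower level. Among all 45037 probe sets these were the 25th and the 15th lowest differences of this comparison. Both calls held in all 13 fits with 1 array removed. The Batf-/- day 3 array with the highest Il7r value, replicate 1, was also the one with the highest Batf value of its group (6.77), and no relation between the genes was tested. In bulk RNA, fewer cells with Il7r and less Il7r RNA per cell cannot be told apart.

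Of the 12 receptor probe sets, these 2 passed the test at day 3, both lower in Batf-/- cells, against 0.773% of all probe sets in either direction. Over the members, the median difference was -0.02, and over all probe sets it was 0.01. The 10 remaining probe sets had log2 differences between -0.06 and 0.20. Their 95% intervals, with the spread pooled over naive and day 3 groups, lay within -0.40 and 0.41.

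**Figure D2:**
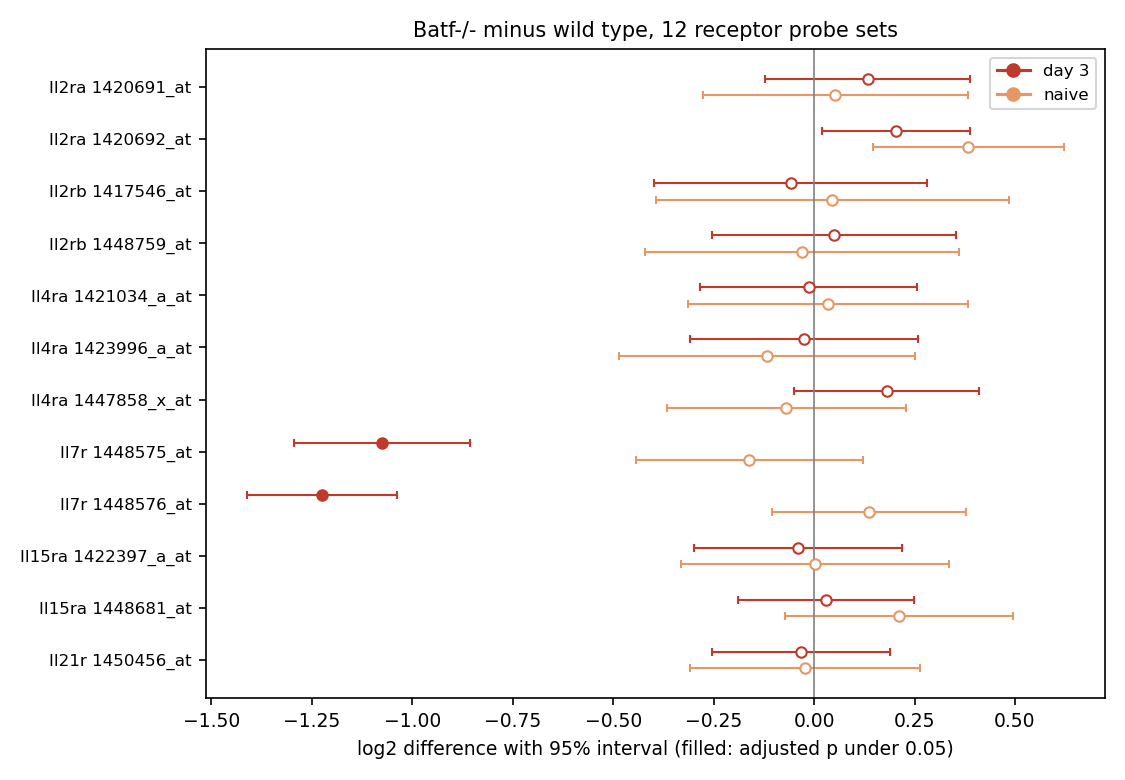
Log2 difference of Batf-/- minus wild type (x axis) with its 95% interval for the 12 receptor probe sets (y axis), at day 3 (upper point of each row) and in naive cells (lower point); filled points passed the test. The 2 Il7r probe sets at day 3, at -1.08 and -1.22, are the filled points, and the other points lie between -0.16 and 0.38.

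Il2ra, the alpha chain that turns the IL-2 receptor into its high-affinity form, was near the background in naive cells and high at day 3 in both genotypes. Its brighter probe set (1420692_at) had log2 intensities of 9.47, 9.60, 9.68 and 9.67 in Batf-/- day 3 arrays and 9.46, 9.37, 9.36 and 9.41 in wild-type day 3 arrays. Naive values of this probe set were 4.17, 4.53 and 4.56 in Batf-/- and 4.00 and 4.07 in wild-type arrays. Neither pair of genotype groups overlapped in this probe set, although the day 3 groups lay within 0.01 of each other at their edges.

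The second Il2ra probe set (1420691_at) read 8.37, 8.47, 8.51 and 8.56 in Batf-/- day 3 arrays and 8.43, 8.42, 8.49 and 8.04 in wild-type day 3 arrays, which overlap. Its naive values, 5.14, 5.11 and 4.71 in Batf-/- and 4.78 and 5.10 in wild-type arrays, overlap as well. The Il2ra difference at day 3 was 0.20 ± 0.09 (adjusted p = 0.404) and 0.13 ± 0.12 (adjusted p = 0.775) for these probe sets, and neither passed.

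Il2rb, the beta chain that the IL-2 and IL-15 receptors share, was likewise higher at day 3 in both genotypes. In 1448759_at the log2 intensity was 10.78, 10.76, 10.81 and 10.74 in Batf-/- day 3 arrays and 10.75, 10.71, 10.74 and 10.68 in wild-type day 3 arrays. Naive values were 7.88, 8.51 and 8.82 in Batf-/- and 8.41 and 8.47 in wild-type arrays. The genotypes overlapped in both states, and the Batf-/- naive arrays spread most (SD 0.48, against 0.04 in wild-type naive arrays). The difference at day 3 was 0.05 ± 0.14 (adjusted p = 0.951) and the second probe set, 1417546_at, gave -0.06 ± 0.16 (adjusted p = 0.948).

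The naive spread of Il2rb ran beside other features of these arrays. Among naive arrays, Batf-/- replicate 1 had the lowest Il2rb value and the lowest mean of the 5 markers of memory-phenotype CD8 T cells (10.09). That cell state is known for high Il2rb. The marker mean was 10.92 and 11.21 in the other Batf-/- naive arrays and 10.62 and 10.84 in wild-type naive arrays. Of these markers Cd44 went the other way, while the rest were lowest in replicate 1. Cd44 read 10.36 there, 10.03 and 10.45 in the other Batf-/- naive arrays, and 9.57 and 9.72 in wild-type naive arrays. The same replicate had the lowest CD8 T cell mean (11.67, against 12.08 to 12.23 in the other naive arrays). It also had the highest NK cell mean (8.22, against 6.51 to 7.63 in the other naive arrays). The part of these features in the Il2rb values was not tested.

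Il4ra, the alpha chain of the IL-4 and IL-13 receptors, has 3 probe sets. The brightest, 1421034_a_at, read 9.48, 9.38, 9.36 and 9.28 in Batf-/- day 3 arrays and 9.26, 9.33, 9.26 and 9.69 in wild-type day 3 arrays. Naive values were 8.58, 9.09 and 9.18 in Batf-/- and 8.91 and 8.92 in wild-type arrays. Genotypes overlapped in both states, and day 3 arrays were above naive arrays. The middle probe set, 1423996_a_at, had group means of 7.03 ± 0.26 in Batf-/- and 7.06 ± 0.14 in wild-type day 3 arrays, with 6.64 ± 0.27 in Batf-/- and 6.75 ± 0.0013 in wild-type naive arrays. The dimmest, 1447858_x_at, had means of 6.15 ± 0.11, 5.97 ± 0.15, 6.14 ± 0.24 and 6.21 ± 0.12 in the same order of groups. It carries the suffix of probe sets that may bind several transcripts, and its state difference did not follow the other Il4ra probe sets.

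Il15ra, the chain that binds IL-15 and presents it to neighbouring cells, had a small fall at day 3 that passed in Batf-/- cells by 1 of its 2 probe sets. Its brighter probe set (1448681_at) read 6.64, 6.47, 6.42 and 6.43 in Batf-/- and 6.28, 6.47, 6.64 and 6.46 in wild-type day 3 arrays. Its naive values were 6.81, 6.90 and 7.20 in Batf-/- and 6.63 and 6.89 in wild-type arrays. The genotypes overlapped in both states. The other probe set, 1422397_a_at, had group means of 5.47 ± 0.20 in Batf-/- and 5.51 ± 0.17 in wild-type day 3 arrays, and of 5.68 ± 0.23 in Batf-/- and 5.68 ± 0.03 in wild-type naive arrays.

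Il21r, the private chain for IL-21, varied least of the 6 brightest probe sets, over a range of 0.43 log2 units on the 13 arrays. It read 8.66, 8.46, 8.38 and 8.38 in Batf-/- and 8.38, 8.59, 8.51 and 8.53 in wild-type day 3 arrays, and 8.39, 8.78 and 8.79 in Batf-/- and 8.81 and 8.54 in wild-type naive arrays. No 2 of the 4 groups were separated in it.

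Naive arrays of both genotypes were compared to ask whether the receptor set differed before stimulation. None of the 12 probe sets passed the limma test, against 0.739% of all probe sets, and 1 of the 12 had an unadjusted p under 0.05, a smaller share than the 13.6% of all probe sets. That 1 was Il2ra 1420692_at, with a difference of 0.38 ± 0.11 (n = 3 and 2, adjusted p = 0.137) and a wild-type mean in the dim range. Without Batf-/- naive replicate 1 the difference was 0.51 ± 0.09 and passed (adjusted p = 0.0161). Weighting the arrays by their quality gave 0.48 ± 0.10 (adjusted p = 0.0251). The second Il2ra probe set gave 0.05 ± 0.15 (adjusted p = 0.923). Regulatory T cells display Il2ra without stimulation, and the 4 markers of CD4 and regulatory T cells averaged 4.75 to 4.87 in Batf-/- and 4.67 to 4.86 in wild-type naive arrays. Of these markers Foxp3 was dim in both groups, while Cd4, Zbtb7b and Cd40lg were above the dim threshold. The NK cell list (7.36 to 8.22 in Batf-/-, 6.51 to 6.70 in wild-type) and the B cell list (6.58 to 7.10, 6.03 to 6.38) were higher in Batf-/- naive arrays. The neutrophil and monocyte lists overlapped between the genotypes. The part of any of these lists in the Il2ra values was not tested.

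For Il7r the naive difference was -0.16 ± 0.13 in 1448575_at (95% interval -0.44 to 0.12) and 0.14 ± 0.11 in 1448576_at (-0.10 to 0.38), so the probe sets pointed in opposite directions. Neither passed (adjusted p = 0.646 for both). The remaining naive differences lay between -0.12 and 0.21, with 95% intervals within -0.48 and 0.49. Naive arrays differed more among themselves than day 3 arrays did, with an SD (root of the mean variance) of 0.23 log2 units in Batf-/- naive and 0.13 in Batf-/- day 3 arrays over all probe sets.

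The comparison of day 3 with naive cells in each genotype asks how the receptor set changed with stimulation. In this comparison stimulation, time in culture and lower B, NK, neutrophil and monocyte marker means came together and cannot be told apart. A change with stimulation means this difference. In Batf-/- cells 9 of the 12 probe sets passed, 6 higher and 3 lower, against 38.3% of all probe sets. In wild-type cells 7 of 12 passed, 5 higher and 2 lower, against 38.6% of all probe sets. The median over the members was 0.20 in Batf-/- and 0.07 in wild-type cells, and over all probe sets 0.04 and 0.03 in the same order.

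Il2ra 1420692_at rose by 5.18 ± 0.09 log2 units in Batf-/- cells, 36.4-fold (n = 4 and 3, adjusted p = 1.13e-13). In wild-type cells it rose at least 33.2-fold, counted against the dim threshold because the wild-type naive mean was dim (fitted difference 5.36 ± 0.10, n = 4 and 2, adjusted p = 3.91e-13). The Batf-/- naive mean of 4.42 was itself close to the dim threshold. The other Il2ra probe set gave smaller rises of 3.49 ± 0.13 and 3.41 ± 0.15 in Batf-/- and wild-type cells. Il2rb rose by 2.36 ± 0.15 in Batf-/- cells (5.15-fold, adjusted p = 2.88e-08) and by 2.29 ± 0.17 in wild-type cells (4.87-fold, adjusted p = 1.59e-07) in 1448759_at. Its other probe set gave 2.24 ± 0.17 in Batf-/- and 2.34 ± 0.19 in wild-type cells. Without Batf-/- naive replicate 1, the Batf-/- rise of Il2rb was 2.10 ± 0.08 in 1448759_at and 1.96 ± 0.11 in 1417546_at, and both still passed.

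Il7r fell in both genotypes, and further in Batf-/- cells. In 1448575_at the change was -3.18 ± 0.11 in Batf-/- cells (9.07-fold lower, adjusted p = 5.85e-11) and -2.27 ± 0.12 in wild-type cells (4.81-fold lower, adjusted p = 7.47e-09). In 1448576_at it was -3.33 ± 0.09 in Batf-/- cells (10.1-fold lower, adjusted p = 8.43e-12) and -1.97 ± 0.11 in wild-type cells (3.91-fold lower, adjusted p = 6.13e-09). Levels therefore ran in the order Batf-/- day 3, wild-type day 3 and then both naive groups, whose own order differed between the probe sets.

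**Figure D3:**
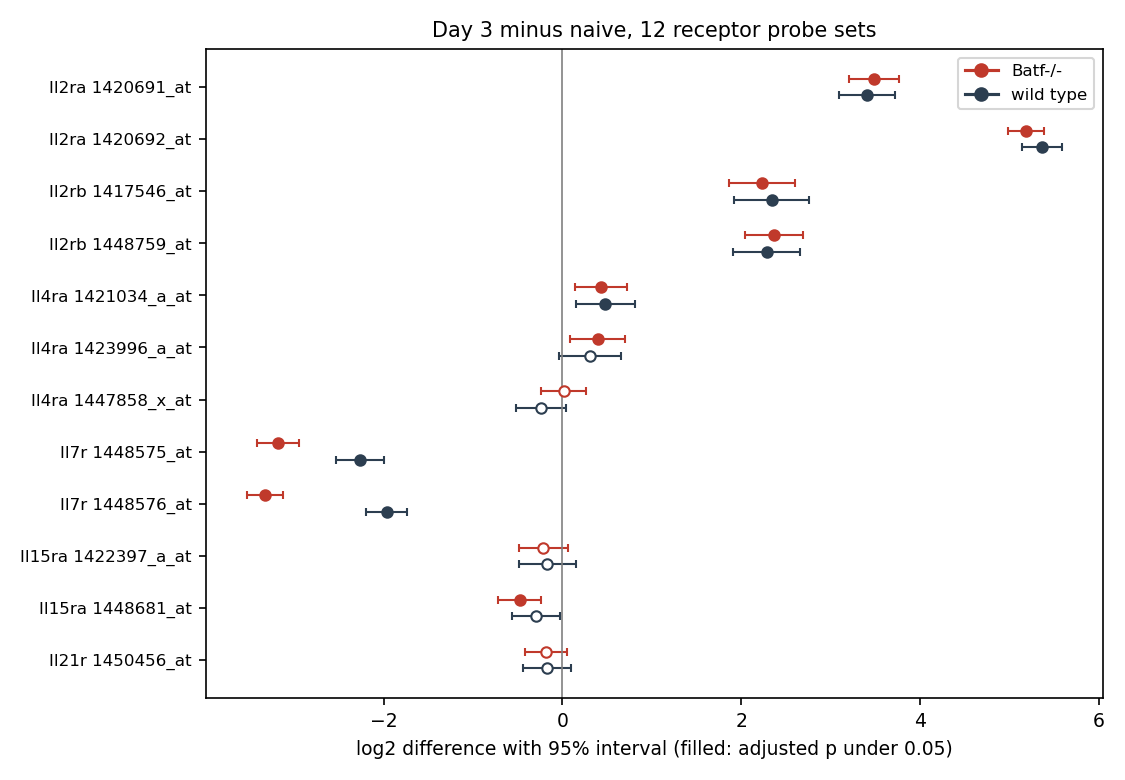
Log2 difference of day 3 minus naive (x axis) with its 95% interval for the 12 receptor probe sets (y axis), in Batf-/- (upper point of each row) and wild-type cells (lower point); filled points passed the test. Il2ra and Il2rb lie between 2.24 and 5.36 in both genotypes, and Il7r lies at -3.18 and -3.33 in Batf-/- and at -2.27 and -1.97 in wild-type cells.

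Smaller changes were seen in the other chains. Il4ra 1421034_a_at rose by 0.43 ± 0.14 in Batf-/- (adjusted p = 0.0224) and 0.48 ± 0.15 in wild-type cells (adjusted p = 0.024). The Batf-/- call was lost without Batf-/- naive replicate 1 (adjusted p = 0.11, difference 0.24) or Batf-/- day 3 replicate 1 (adjusted p = 0.0568). The wild-type call was lost without either wild-type naive replicate (adjusted p = 0.104 without replicate 1 and 0.0997 without replicate 2) or wild-type day 3 replicate 4 (adjusted p = 0.0556). Il4ra 1423996_a_at passed in Batf-/- cells (0.40 ± 0.14, adjusted p = 0.0417, lost in 7 of 13 fits without an array) and was at 0.30 ± 0.16 in wild-type cells (adjusted p = 0.163).

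Il15ra 1448681_at fell by 0.48 ± 0.11 in Batf-/- cells (adjusted p = 0.00301), while in wild-type cells the difference was -0.30 ± 0.12 (adjusted p = 0.0771). The difference between those changes did not pass (-0.18 ± 0.17, adjusted p = 0.752). Il21r was at -0.18 ± 0.11 in Batf-/- and -0.17 ± 0.13 in wild-type cells, and did not pass in either. Without Batf-/- naive replicate 1 its Batf-/- difference was -0.32 ± 0.10 and passed (adjusted p = 0.0228), as it did with array quality weights (adjusted p = 0.011).

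Whether a change with stimulation differed between the genotypes was tested as the change in Batf-/- minus the change in wild-type cells. Of the 12 probe sets 2 passed, both of Il7r, against 0.306% of all probe sets. The difference of the changes was -1.36 ± 0.14 in 1448576_at (adjusted p = 0.000867), a call that held whichever array was removed. In 1448575_at it was -0.91 ± 0.17 (adjusted p = 0.0381), and this call was lost in 9 of 13 fits with 1 array removed, with adjusted p up to 0.153 and differences between -1.14 and -0.78 over all alternatives. It was lost without wild-type naive replicate 1, Batf-/- naive replicate 3, any of the 4 wild-type day 3 replicates, or Batf-/- day 3 replicate 2, 3 or 4. For the other chains the differences of the changes lay between -0.18 and 0.25, with 95% intervals within -0.66 and 0.63. This comparison and the genotype comparison at day 3 share their day 3 arrays.

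The rest of the pathway was read from lists of its genes, 37 in all, of which 36 were measured, each by its brightest probe set. Between the genotypes at day 3, 1 of the 36 was higher and 2 were lower in Batf-/- cells, with a list median of 0.01 and 11 at an unadjusted p under 0.05. Over the brightest probe sets of all 18193 genes, 1.05% passed in this comparison and 11.7% had an unadjusted p under 0.05. In naive cells 0 of 36 passed limma's test, with 8 at an unadjusted p under 0.05, against 0.863% and 12.8% of all genes. For the difference of the changes 0 of 36 passed in limma, with 6 at an unadjusted p under 0.05, against 0.434% and 11.1% of all genes.

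From naive to day 3, 25 of the 36 genes passed in Batf-/- cells (13 higher, 12 lower). Of all genes, 44.8% passed there by their brightest probe set. In wild-type cells 22 of 36 passed (13 higher, 9 lower), against 43.7% of all genes.

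Ligand genes were mostly dim. Il2 averaged 3.55 in Batf-/- and 3.43 in wild-type day 3 arrays, and 3.62 in Batf-/- and 3.58 in wild-type naive arrays. Il15 fell with stimulation to dim levels, by 1.12 ± 0.21 in Batf-/- cells (at least 1.30-fold) and 1.29 ± 0.24 in wild-type cells (at least 1.48-fold). Tslp also passed in Batf-/- cells, at -0.59 with both groups dim, and Il9 in wild-type cells, at 0.38 (adjusted p = 0.0158). None of the 8 ligand genes passed limma's test between the genotypes. At an unadjusted p under 0.05 were 0 at day 3 and 2 in naive cells, against 11.7% and 12.8% of all genes. Of the receptor chains outside the members, Crlf2, the private chain for the IL-7-like cytokine TSLP that pairs with Il7r, rose by 0.45 ± 0.06 in Batf-/- cells (adjusted p = 4.25e-05) and by 0.49 ± 0.07 in wild-type cells (adjusted p = 6.75e-05). Its day 3 values were 10.55, 10.51, 10.51 and 10.50 in Batf-/- and 10.33, 10.30, 10.35 and 10.40 in wild-type arrays. The groups did not overlap, and the difference of 0.17 ± 0.06 did not pass (adjusted p = 0.252). Il13ra1, which pairs with Il4ra to bind IL-13, fell by 0.80 in Batf-/- cells to a dim level (at least 1.20-fold, adjusted p = 5.38e-05) and was at -0.25 in wild-type cells (adjusted p = 0.151). Its Batf-/- naive values were 4.93 in replicate 1, and 4.36 and 4.52 in the others. Tslp read 3.51 in Batf-/- naive replicate 1, and 2.72 and 2.75 in the others. That replicate also had the highest neutrophil and monocyte marker means, whose part in these values was not tested.

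Among 7 measured kinases and STAT factors none passed limma's test between the genotypes. At an unadjusted p under 0.05 were 1 at day 3 and 2 in naive cells, against 11.7% and 12.8% of all genes. That gene at day 3 was Stat3 (-0.23 ± 0.07, adjusted p = 0.207). With stimulation Jak3 rose by 0.63 ± 0.08 in Batf-/- and 0.83 ± 0.10 in wild-type cells. Jak1 (-0.50 in Batf-/- and -0.70 in wild-type cells), Stat6 (-0.26 and -0.43 in the same order) and Stat5a (-0.26 and -0.39) fell in both.

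All 11 feedback and response genes changed with stimulation, 8 higher and 3 lower in each genotype, against 44.8% of all genes in Batf-/- and 43.7% in wild-type cells. Socs2, a feedback inhibitor of cytokine signalling, rose by 3.50 ± 0.22 in Batf-/- and 3.39 ± 0.25 in wild-type cells, and Cish, a Stat5 target of the same family, rose by 2.79 ± 0.11 in Batf-/- and 2.25 ± 0.13 in wild-type cells. Socs3 (-1.72 in Batf-/- and -1.81 in wild-type cells) and the survival gene Mcl1 (-1.23 and -1.14 in the same order) fell, while Bcl2, which protects T cells from death, rose by 1.29 in Batf-/- and 1.20 in wild-type cells.

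Between the genotypes at day 3, the cytokine gene Osm was higher in Batf-/- cells, with log2 intensities of 8.47, 8.75, 8.82 and 8.71 in Batf-/- and 8.18, 8.18, 8.38 and 8.18 in wild-type arrays. The difference was 0.46 ± 0.10 (adjusted p = 0.0445). It did not pass with arrays centred on their median (adjusted p = 0.0512), nor without any of the 4 wild-type day 3 replicates or Batf-/- day 3 replicates 2, 3 or 4 (adjusted p up to 0.166). Cish read 9.44, 9.76, 9.84 and 9.84 in Batf-/- and 9.35, 9.22, 9.42 and 8.99 in wild-type day 3 arrays. Those groups did not overlap, and the difference of 0.47 ± 0.11 missed the threshold (adjusted p = 0.0608). The median difference of the 11 genes was 0.23, against 0.01 over all probe sets. Of the 11, 5 at day 3 and 1 in naive cells had an unadjusted p under 0.05, against 11.7% and 12.8% of all genes.

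Of 7 genes known to regulate receptor chains, 2 were lower in Batf-/- day 3 cells, where 1.05% of all genes passed in either direction. Gfi1, a repressor that lowers Il7r in CD8 T cells, read 9.06, 8.81, 8.77 and 8.77 in Batf-/- and 9.36, 9.48, 9.33 and 9.52 in wild-type day 3 arrays (-0.57 ± 0.09, adjusted p = 0.00733). Tbx21, the effector factor T-bet, which with Eomes supports Il2rb, read 7.38, 7.25, 7.29 and 7.11 in Batf-/- and 8.12, 8.08, 8.13 and 8.28 in wild-type day 3 arrays (-0.89 ± 0.13, adjusted p = 0.00698). Neither gene's groups overlapped. Eomes was at 0.83 ± 0.25 without passing (adjusted p = 0.199). Foxo1 and Gabpa, which support Il7r, were at -0.11 ± 0.12 and -0.04 ± 0.06, with adjusted p of 0.847 and 0.88. With stimulation Gfi1 rose by 1.21 ± 0.09 in Batf-/- and 1.41 ± 0.11 in wild-type cells, and Foxo1 fell by 0.46 in Batf-/- and 0.55 in wild-type cells. Runx3, a factor of CD8 lineage identity, rose by 0.51 in Batf-/- and 0.66 in wild-type cells, and Ets1, a T cell ETS factor, fell by 0.74 in Batf-/- and 0.80 in wild-type cells. Tbx21 fell by 0.71 in Batf-/- cells (adjusted p = 0.00125) and was at 0.33 in wild-type cells (adjusted p = 0.142), whereas Eomes rose by 0.96 in Batf-/- cells (adjusted p = 0.0126) and was at 0.17 in wild-type cells (adjusted p = 0.722). None of the 7 regulators passed limma's test of the difference of the changes, against 0.434% of all genes. At an unadjusted p under 0.05 was 1 of the 7, Tbx21 (-1.04 ± 0.22, adjusted p = 0.0736), against 11.1% of all genes. Between the genotypes, 4 of the 7 at day 3 and 1 in naive cells had an unadjusted p under 0.05. Over all genes these shares were 11.7% and 12.8%.

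**Figure D4:**
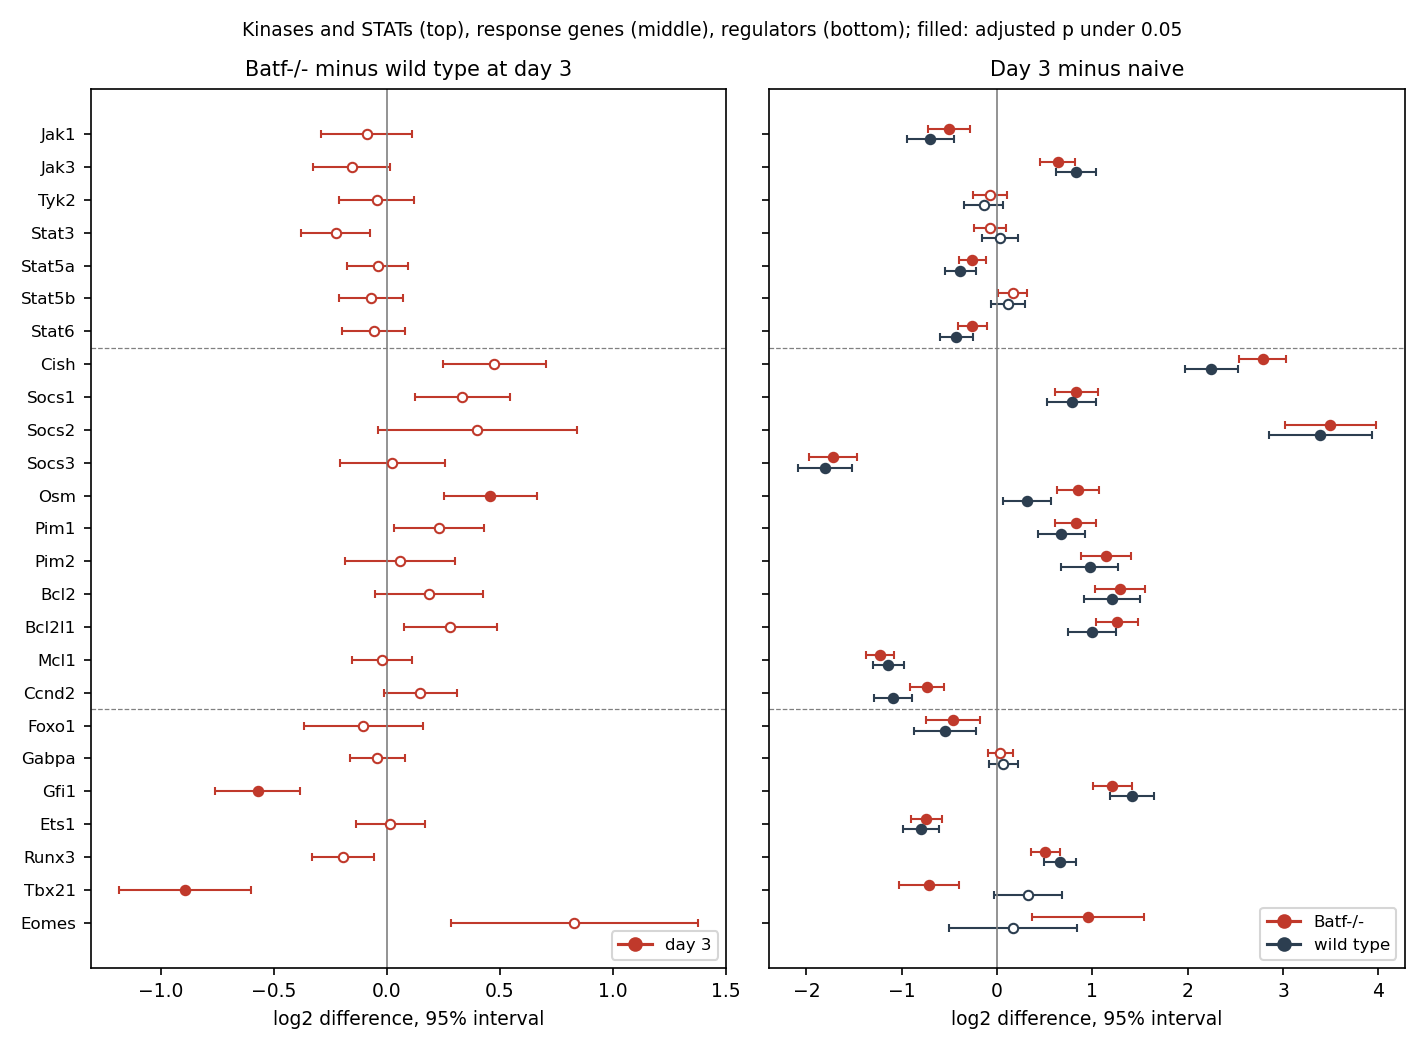
Log2 differences with 95% intervals (x axes) for 25 pathway genes (y axis, in blocks of kinases and STATs, response genes and regulators), as Batf-/- minus wild type at day 3 on the left and as day 3 minus naive in Batf-/- (upper point) and wild-type cells (lower point) on the right; filled points passed the test. On the left Osm (0.46), Gfi1 (-0.57) and Tbx21 (-0.89) are filled, and on the right all 11 response genes are filled in both genotypes.

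The genes with profiles most like each receptor were found by the root mean square difference between log2 profiles over the 13 arrays, each centred on its own mean, among 12018 other genes. For Il7r they were Ighv14-2 (0.24), annotated as an antibody variable gene, Ampd1 (0.29), an AMP deaminase, and Rflnb (0.35), against a median of 1.41 over all compared genes. Ampd1 averaged 4.56 in Batf-/- and 5.37 in wild-type day 3 arrays, and 7.87 in Batf-/- and 8.21 in wild-type naive arrays. For Il2ra they were Plod2 (0.20), a collagen lysine hydroxylase, Fam183b (0.21) and Bnip3 (0.30), a mitochondrial autophagy receptor, against a median of 2.54. For Il2rb they were the phosphatase Ppm1j (0.12), the muscle glycogen phosphorylase Pygm (0.14) and the zinc transporter Slc39a4 (0.14), against a median of 1.14.

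For the 3 steadier chains the nearest profiles lay closer. The medians over all compared genes were also lower, at 0.33 for Il4ra, 0.31 for Il15ra and 0.26 for Il21r. The nearest genes for Il4ra were Rmdn1 (0.08), Evi2a (0.09) and H2-Oa (0.10). For Il15ra they were Thoc5, Rel and Chmp1a (0.10 to 0.11), and for Il21r Ppcdc, Selenoo and Dcaf5 (0.05 to 0.07). Among the receptors themselves the nearest pair was Il15ra and Il21r (0.19) and the farthest was Il2ra and Il7r (3.90). The profiles share the large difference between naive and day 3 arrays.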

How the data were processed

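Per the submitters' processing notes, the authors used RMA (no version is named), and the deposited values are probe set intensities on a linear scale. RMA removes background, brings arrays to a common distribution and joins the probes of each set, and differences near the background come out compressed. Array medians lay between 31.5 and 32.5. Values were converted to log2 here without further normalisation, and 64 control probe sets were left out. Gene names come from the platform annotation, in which 34945 of the 45037 probe sets tested have 1 symbol, 932 several and 9160 none. Names were taken from probe sets with 1 symbol.

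A model with a mean for each of the 4 groups was fitted with limma 3.58.1 in R 4.3.3 to the 13 arrays over all 45037 probe sets (9 residual and 4.42 prior degrees of freedom). Its moderated test was used two-sided, p-values were adjusted over all probe sets after Benjamini and Hochberg, and an adjusted p below 0.05 passed. Errors are the SE of a log2 difference and the SD of a mean. The procedure was also run on simulated data with known changes, in which each probe set had the same spread in every group, unlike in these arrays. Where a group was dim, a fold is a lower bound, taken against the dim threshold.

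The members and lists were chosen with earlier results of these data known. Every receptor probe set is reported. In the pathway lists, values are given for genes that passed between the genotypes and for the 2 largest changes in each direction with stimulation per list, and the like-profile rule names 3 genes per receptor. Il2, Stat3, Stat5a, Bcl2 and Gabpa, and the genotype differences of Crlf2, Cish, Eomes and Foxo1, were added after their values were seen. Same-numbered arrays did not deviate together (correlations of -0.266 to 0.0728), and the main fit did not pair them. Deviations from the means of so few arrays cannot show whether the numbers pair the arrays. Alternatives were other normalisations, a filter on dim probe sets, gene-level tests, variance models, array weights, a replicate block, the compared groups alone and leaving out each array.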

Additional observations from a re-analysis of the deposited data

Results flagged for a closer look

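The change of Il7r with stimulation differed between the genotypes by the test of the difference itself, by -0.91 in 1448575_at and by -1.36 in 1448576_at (log2, Batf-/- minus wild type). The call of 1448575_at was lost in 9 of 13 fits with 1 array removed, and that of 1448576_at in 0.

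Among 24 groups of 4 arrays examined for a value far from the others (12 probe sets in 2 day 3 groups), 2 had one, where chance gives about 1 in 20. Both were wild-type day 3 replicate 4. Il2ra 1420691_at was 8.04 there and 8.42 to 8.49 on the other 3 arrays, and without this array the Batf-/- minus wild-type difference at day 3 was 0.03, against 0.13 with it. Il4ra 1421034_a_at was 9.69 there and 9.26 to 9.33 on the others, and without it the wild-type rise with stimulation was 0.37 and did not pass (adjusted p = 0.0556).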

How the results depend on the processing

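Over 1308 recomputed receptor differences, 1270 kept their side of the threshold, 30 lost a call and 8 gained one, and no called difference changed sign. Among differences that passed in neither fit, 68 changed sign. The 2 Il7r calls at day 3 were kept under all alternatives, with adjusted p up to 0.00276 and differences between -1.29 and -1.01. The calls of Il2ra, Il2rb and Il7r with stimulation were kept as well, and calls were lost for Il4ra and, for the difference of the changes, Il7r 1448575_at. In naive cells 1 receptor probe set passed with array quality weights, and 0 to 1 passed when an array was left out. For the difference of the changes, 1 receptor probe set, Il7r 1448576_at, passed with the replicate block while Il7r 1448575_at did not (-0.94, adjusted p = 0.112), and 1 to 2 when an array was left out. The replicate block also ended the Il4ra calls (1421034_a_at at adjusted p = 0.0603 in Batf-/- and 0.0859 in wild-type cells, 1423996_a_at at 0.0944 in Batf-/- cells), as did the mean of the gene's probe sets (0.28, adjusted p = 0.0613 in Batf-/- and 0.18, adjusted p = 0.283 in wild-type cells). Of the 4 Batf-/- day 3 arrays, 0 correlated best with the wild-type day 3 array of the same number.

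Counts over all probe sets varied more, with 348 at day 3, 333 in naive cells and 138 for the difference of the changes in the reported fit. At day 3 they were 528 without the dimmest 40% of probe sets, 534 with an intensity trend, 1659 with array weights, 163 with the replicate block, 894 with the day 3 arrays alone and 127 (without Batf-/- day 3 replicate 3) to 770 (without Batf-/- naive replicate 1) without an array. In naive cells they were 662 with array weights, 142 with the replicate block, 2 with the naive arrays alone and 169 (without wild-type naive replicate 2) to 1623 (without Batf-/- naive replicate 2) without an array. For the difference of the changes they were 214 with the trend, 510 with array weights, 47 with the replicate block and 69 (without wild-type day 3 replicate 2 or Batf-/- day 3 replicate 3) to 531 (without Batf-/- naive replicate 2) without an array. The cause was not tested. The gene-level fits count genes and give no count of probe sets. Values near the dim threshold, as for Il2ra in naive cells, are limited by signal over background.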
